A study of Mus musculus with 6 samples.

Results

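The 31 genes described here carry out DNA replication and the synthesis of its building blocks. They were chosen by name from the deposited table, which holds 33924 genes. The rule is a list of names and sets no threshold on a measured value. By role they fall into 8 licensing genes (Mcm2 to Mcm7, Cdc6 and Cdt1), 7 firing genes (Mcm10, Gins1 to Gins4, Dbf4 and Cdc7), 13 fork genes (Pcna, Pola1, Pole, Pold1, Prim1, Rfc3 to Rfc5, Fen1, Lig1 and Rpa1 to Rpa3) and 3 genes of deoxynucleotide (dNTP) synthesis (Rrm1, Rrm2 and Tyms). All 31 passed the filter on low counts, and all had reads in every library.

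RNA sequencing covered mouse cells of 3 kinds, with 2 libraries for each. These were a leukemia numbered 1, a leukemia numbered 92, and pro-B cells of wild-type mice. Both leukemias came from an Mll-Af4 and N-RasG12D model. Marrow cells positive for c-Kit and Sca1 were taken from Mll-Af4 mice aged 6 to 8 weeks, grown under conditions that favour lymphoid cells, and given a Cre-IRES-TdTomato retrovirus and then an N-RasG12D vector. From these, 250000 cells were injected into mice irradiated with 900 rads, along with 200000 wild-type helper marrow cells, so a recipient also held wild-type blood cells. The controls were wild-type bone marrow cells sorted as B220+ CD43+ IgM-, without the fusion, the Cre or the N-RasG12D vector, and their age is not given in the sources used here. The labels number 2 replicates per group without saying whether they are separate animals, so a p-value measures only the spread between these libraries, which may be technical. Only 2 leukemias were measured.

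A replication origin is licensed in G1, when Cdc6 and Cdt1 help load the MCM2-7 ring, the inactive core of the replicative helicase, onto DNA. In S phase the kinase Cdc7 with its activator Dbf4, together with Mcm10 and the GINS complex, turns the ring into an active helicase. At the fork, polymerase alpha with primase starts each strand, the RFC clamp loader places the PCNA ring, polymerases delta and epsilon extend, RPA covers single strands, and Fen1 and Lig1 join the lagging-strand pieces. Ribonucleotide reductase (Rrm1 with Rrm2) and thymidylate synthase (Tyms) supply the dNTPs. Many of these genes are transcribed as cells enter S phase, under E2F factors, and pro-B cells of the marrow include a strongly cycling fraction.

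Promoter sequences are shown for 6 genes that the results below turn on: Mcm5 and Mcm6, among the 3 falls with the smallest p in leukemia 92; Rfc3, with the smallest p between the leukemias; Cdc6, which differed most between the leukemia 1 replicates; Pold1, low in both leukemias; and Rpa1, high in both. They are RefSeq promoters of build GRCm38.p6, from 250 bases before to 50 bases after the gene start, on the strand of the gene, 5′ to 3′. Capitals mark E2F-type 8-mers (TTTCCCGC, TTTCGCGC, TTTGCCGC or TTTGGCGC) and the pentamer CCAAT, each searched on both strands, and matches that overlap run together. The windows are chr8:75109259-75109558 (plus strand) for Mcm5, chr1:128359656-128359955 (minus strand) for Mcm6, chr5:151651159-151651458 (minus strand) for Rfc3, chr11:98907901-98908200 (plus strand) for Cdc6, chr7:44548766-44549065 (minus strand) for Pold1 and chr11:75348334-75348633 (minus strand) for Rpa1.
Mcm5: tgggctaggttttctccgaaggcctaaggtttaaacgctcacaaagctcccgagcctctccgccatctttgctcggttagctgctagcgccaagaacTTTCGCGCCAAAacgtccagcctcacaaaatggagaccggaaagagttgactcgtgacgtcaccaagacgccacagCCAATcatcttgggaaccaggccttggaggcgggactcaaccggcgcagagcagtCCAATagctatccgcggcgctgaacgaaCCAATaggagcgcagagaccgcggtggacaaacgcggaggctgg
Mcm6: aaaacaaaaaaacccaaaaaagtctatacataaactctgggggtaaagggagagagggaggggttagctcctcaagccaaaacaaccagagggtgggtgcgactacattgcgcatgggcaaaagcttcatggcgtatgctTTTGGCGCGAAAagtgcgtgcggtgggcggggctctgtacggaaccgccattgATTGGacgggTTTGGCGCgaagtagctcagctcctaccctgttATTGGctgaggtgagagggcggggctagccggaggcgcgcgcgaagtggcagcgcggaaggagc
Rfc3: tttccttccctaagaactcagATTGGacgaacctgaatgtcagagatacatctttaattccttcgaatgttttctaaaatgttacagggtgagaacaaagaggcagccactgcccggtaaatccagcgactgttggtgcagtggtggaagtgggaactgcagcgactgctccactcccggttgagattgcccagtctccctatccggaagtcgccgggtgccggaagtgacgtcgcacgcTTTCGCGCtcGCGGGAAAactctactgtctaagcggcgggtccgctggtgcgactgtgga
Cdc6: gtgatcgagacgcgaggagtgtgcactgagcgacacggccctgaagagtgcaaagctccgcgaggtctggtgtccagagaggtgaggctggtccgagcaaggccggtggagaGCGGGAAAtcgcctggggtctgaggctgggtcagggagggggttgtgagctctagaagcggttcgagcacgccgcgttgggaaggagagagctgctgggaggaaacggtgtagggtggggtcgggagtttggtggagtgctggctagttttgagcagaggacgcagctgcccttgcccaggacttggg
Pold1: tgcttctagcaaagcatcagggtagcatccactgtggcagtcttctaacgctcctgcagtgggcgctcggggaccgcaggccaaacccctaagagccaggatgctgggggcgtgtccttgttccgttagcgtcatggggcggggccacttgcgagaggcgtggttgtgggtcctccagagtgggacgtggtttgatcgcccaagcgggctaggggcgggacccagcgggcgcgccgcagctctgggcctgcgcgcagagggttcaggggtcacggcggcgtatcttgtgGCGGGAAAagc
Rpa1: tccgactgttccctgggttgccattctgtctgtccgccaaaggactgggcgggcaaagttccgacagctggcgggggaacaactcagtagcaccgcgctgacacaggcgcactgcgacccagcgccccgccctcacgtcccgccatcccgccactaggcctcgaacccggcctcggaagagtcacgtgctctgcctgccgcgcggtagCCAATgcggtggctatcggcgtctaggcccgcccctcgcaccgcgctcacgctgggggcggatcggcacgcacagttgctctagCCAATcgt

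The Mcm6 window holds 3 of the E2F-type 8-mers, those of Mcm5 and Rfc3 hold 2 each, and those of Cdc6 and Pold1 hold 1 each. The Rpa1 window holds none and has 2 CCAAT pentamers. Mcm7, the other of the 3 falls with the smallest p in leukemia 92, is not shown. Of its windows, 1 holds 2 of the 8-mers and another holds 0. RefSeq promoters were found for 26 of the 31 genes, 31 promoters in all, and 11 of these promoters (35.5%) held at least 1 such 8-mer. The share was 2.26% of all 32851 RefSeq promoters and 3.79% of the 12212 promoters of genes tested here. CCAAT stood in 54.8% of the 31 promoters and in 37.4% of all of them. Base composition was close, with a median GC content of 61.3% for the replication genes and 60.3% for the tested genes. A match says only that these letters are present in the window.

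Gene counts summed to 22153444 to 27444759 per library. Levels are given below as CPM, read counts relative to library size, scaled by the trimmed mean of M values (TMM), and changes as log2 of the ratio, with standard errors (SE) and Benjamini-Hochberg adjusted p-values from edgeR's quasi-likelihood test over all genes. A gene is called at an adjusted p under 0.05. The libraries of leukemia 1 stood apart from each other. A list of 12 granulocyte markers summed to 183 CPM in its replicate 1 and 16452 CPM in its replicate 2, against 425 to 805 CPM in the other 4 libraries. Across all genes the SD of the log2 difference between replicates was 1.33 in leukemia 1, 0.40 in leukemia 92 and 0.35 in pro-B cells. Among the replication genes these SDs were 0.37, 0.091 and 0.087. The 14 pro-B markers summed to 4865 to 7253 CPM in the 6 libraries. Against pro-B cells, 4 were called lower and 2 higher in leukemia 92 (16.7% and 14.7% of all genes). In leukemia 1, 5 were called lower and 3 higher (10.7% and 9.55% of all genes). Rag1 and Rag2 were among those lower in both leukemias. The B-cell receptor component Cd79a, present throughout at 413 to 1443 CPM, was called higher in both. The terminal transferase gene Dntt, at 970 and 604 CPM in the pro-B libraries, was at 0 to 1.11 CPM in the leukemia libraries.

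Replication genes were lower in leukemia 92 than in pro-B cells in all 4 roles. Of the 31 genes, 24 were called lower and 1 higher (Rpa1), while 16.7% of all 14979 genes tested were called lower and 14.7% higher. The median change of the 31 was -0.93, or 52.5% of the pro-B level, and the middle range ran from -1.16 to -0.64. Over all genes tested the median was -0.04. Both leukemia 92 libraries lay below both pro-B libraries for 30 of the 31 genes, all but Rpa1, which was so for 45.3% of all genes tested. Leukemia 1 lay close to pro-B cells, with 4 genes called lower and 1 higher against 10.7% and 9.55% of all genes. Its median was -0.11, or 92.8% of the pro-B level. Both comparisons use the same pro-B libraries. These counts depend on single libraries. With any one pro-B or leukemia 92 library left out of the 6-library fit, the calls among the 31 were lost in both comparisons. Fewer genes were then called among all genes tested too. Without replicate 1 or replicate 2 of leukemia 1 more were called, among the 31 and over all genes. Whether these shifts differ between the 31 and all genes was not tested. Over these fits the median of the 31 ran from -0.98 to -0.91 in leukemia 92 and from -0.16 to -0.10 in leukemia 1. A fit of the 4 leukemia 92 and pro-B libraries alone called 29 lower and 1 higher. It also called 5507 of all 14585 genes tested lower and 4940 higher. The median of the 31 was -0.93 in that fit, and -0.95 to -0.86 with any one of the 4 left out.

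The direct test of leukemia 92 against leukemia 1 called 7 of the 31 genes lower and none higher, while 1.27% of all genes were called lower and 1.82% higher. All 31 fitted changes were below 0, with a median of -0.76 (59.0% of the leukemia 1 level) beside -0.08 over all genes tested. Both leukemia 92 libraries lay below both leukemia 1 libraries for 30 of the 31 genes, all but Pold1, as for 25.8% of all genes. The 7 called genes were Mcm5, Mcm6, Mcm7, Pcna, Rfc3, Rpa2 and Rrm2, with adjusted p-values from 0.036 to 0.0477 in edgeR. The 7 calls depend on single libraries, and so does the number of all genes called in this comparison. A fit of the 4 leukemia libraries alone called 0 of the 31 and 0 of all 13665 genes tested. With 1 library left out, the median of the 31 ran from -0.81 to -0.68. In bulk RNA, fewer cells in S phase and less of these transcripts per cell cannot be told apart.

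**Figure D1:**
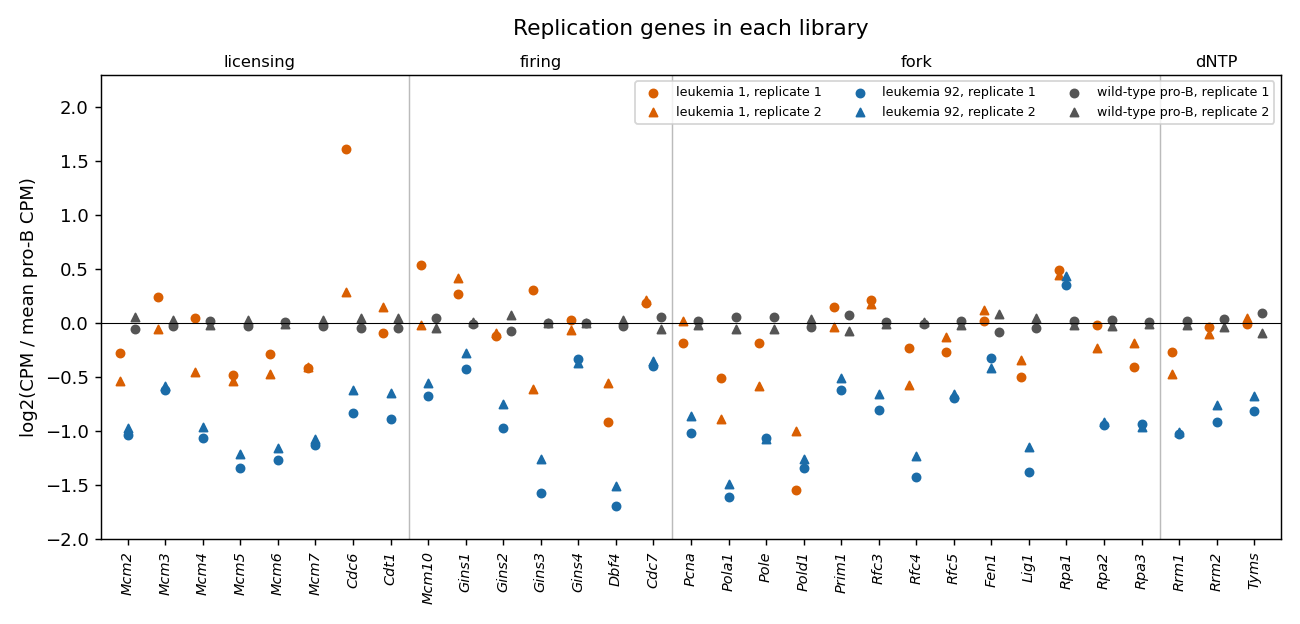
Level of each of the 31 replication genes in each library, as log2 of its CPM over the mean pro-B CPM of that gene; circles are replicate 1 and triangles replicate 2, and genes are ordered by role. The leukemia 92 points lie below both pro-B points for 30 genes, Rpa1 lies above in all 4 leukemia libraries, and Cdc6 in replicate 1 of leukemia 1 is the highest point.

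By the median of the 31 genes, each library resembled the other library of its group, although single genes differed between the leukemia 1 replicates. The median of the 31 genes relative to the pro-B mean, on the log2 scale, was -0.94 and -0.87 in the leukemia 92 libraries and -0.10 and -0.13 in the leukemia 1 libraries. The leukemia 1 replicates thus had nearly the same median, although their granulocyte markers differed as given above. Summed over the 31 genes the level was 3197 and 3416 CPM in leukemia 92, 5590 and 5108 CPM in leukemia 1, and 6106 and 6061 CPM in pro-B cells. Among the 31 genes, 14 were below both pro-B libraries in all 4 leukemia libraries (26.7% of all genes), and the same 14 genes make up the count for leukemia 1 alone (32.5% of all genes). The single gene above both pro-B libraries in all 4 leukemia libraries was Rpa1 (24% of all genes). Cdc6, Gins1, Cdc7 and Rfc3 were below both pro-B libraries in leukemia 92 and above both in leukemia 1, an arrangement found in 2.97% of all genes.

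Among the licensing genes, 7 of 8 were called lower in leukemia 92, with a median of -1.01. Mcm5, a subunit of the helicase ring, stood at 411 and 428 CPM in the pro-B libraries, 301 and 290 CPM in leukemia 1 and 165 and 181 CPM in leukemia 92. The 3 groups did not overlap, and leukemia 92 was lowest. The change against pro-B cells was -1.28 ± 0.11 (SE, adjusted p = 0.00313 in edgeR) in leukemia 92 and -0.51 ± 0.11 (adjusted p = 0.0383) in leukemia 1. Mcm6, another ring subunit, stood at 569 and 559 CPM in pro-B cells, 462 and 407 CPM in leukemia 1 and 234 and 253 CPM in leukemia 92. It showed the same order without overlap. Its change in leukemia 92 was -1.21 ± 0.12 (edgeR adjusted p = 0.00421), and in leukemia 1 it was -0.38 ± 0.12, which was not called (adjusted p = 0.0919). Mcm7 stood at 405 and 422 CPM in pro-B cells, 309 and 312 CPM in leukemia 1 and 188 and 196 CPM in leukemia 92. Mcm2 followed the same order at a lower level, with 275 and 297 CPM, 236 and 196 CPM, and 139 and 146 CPM in these groups.

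Mcm3 and Mcm4 differed from the other ring subunits in leukemia 1. Mcm3 stood at 376 and 388 CPM in pro-B cells, 451 and 368 CPM in leukemia 1 and 248 and 255 CPM in leukemia 92. Mcm4 stood at 323 and 314 CPM, 329 and 232 CPM, and 152 and 163 CPM in the same groups. The leukemia 1 replicates lay on both sides of the pro-B level for these genes, whereas leukemia 92 was below it. Levels per kilobase used the union of all annotated exons of a gene, 6956 bases for Mcm2 and 3589 for Mcm4, not the length of the transcript expressed, so the order of subunits depends on that annotation. On this scale Mcm3 was the highest of the 6 ring genes in all 4 leukemia libraries and Mcm6 was the highest in both pro-B libraries. Mcm2 was the lowest in all 6 libraries. The highest stood 2.81 to 3.55 times above the lowest.

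The loading factors Cdc6 and Cdt1 behaved differently from each other. Cdc6 stood at 57.2 and 60.7 CPM in pro-B cells and 33.0 and 38.2 CPM in leukemia 92, but at 180 CPM in replicate 1 and 71.8 CPM in replicate 2 of leukemia 1. Both leukemia 1 libraries were above the pro-B pair, and they differed from each other by 1.33 on the log2 scale. No comparison called Cdc6 in edgeR: the changes against pro-B cells were -0.73 ± 0.44 in leukemia 92 (adjusted p = 0.266) and 1.09 ± 0.44 in leukemia 1 (adjusted p = 0.148), and leukemia 92 against leukemia 1 gave -1.82 ± 0.45 (adjusted p = 0.0978). Cdt1 stood at 50.4 and 53.8 CPM in pro-B cells, 48.7 and 57.8 CPM in leukemia 1 and 28.0 and 33.2 CPM in leukemia 92. Leukemia 1 spanned the pro-B values and leukemia 92 lay below them (-0.77 ± 0.16, edgeR adjusted p = 0.0238).

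Among the firing genes, 3 of 7 were called lower in leukemia 92 (Dbf4, Gins2 and Gins3) and the median was -0.61. Dbf4, the regulatory partner of Cdc7 kinase, stood at 135 and 140 CPM in pro-B cells, 73.1 and 93.9 CPM in leukemia 1 and 42.5 and 48.2 CPM in leukemia 92. Of the 31 genes it had the lowest fitted change in leukemia 92, -1.60 ± 0.17 (32.9% of the pro-B level, edgeR adjusted p = 0.00484). It was called in leukemia 1 as well (-0.72 ± 0.17, adjusted p = 0.0426). Cdc7 itself stood at 81.1 and 74.97 CPM in pro-B cells, 88.4 and 90.2 CPM in leukemia 1 and 59.3 and 61.0 CPM in leukemia 92. Its change in leukemia 92, -0.38 ± 0.11, missed the threshold (edgeR adjusted p = 0.0613).

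The GINS subunits and Mcm10 gave mixed values. Gins3 stood at 26.6 CPM in both pro-B libraries, 32.9 and 17.5 CPM in leukemia 1 and 8.92 and 11.1 CPM in leukemia 92 (-1.41 ± 0.34 for leukemia 92, edgeR adjusted p = 0.0357). Gins1 stood at 33.3 and 33.6 CPM in pro-B cells, 40.3 and 44.6 CPM in leukemia 1 and 24.9 and 27.6 CPM in leukemia 92. Gins4 stood at 46.9 CPM in both pro-B libraries, 47.8 and 44.9 CPM in leukemia 1 and 37.3 and 36.4 CPM in leukemia 92. Gins1 and Gins4 were not called in leukemia 92 (-0.35 each), although its libraries did not overlap the pro-B pair. Gins2 stood at 31.3 and 34.8 CPM in pro-B cells, 30.4 and 30.99 CPM in leukemia 1 and 16.8 and 19.6 CPM in leukemia 92. Its counts are uncertain, since 67.3% of its exon bases overlap Gse1 on the opposite strand (GENCODE M21) and the strand setting of the counting is not given in the sources used here. Mcm10, a scaffold of the starting fork, stood at 83.5 and 78.2 CPM in pro-B cells, 118 and 79.9 CPM in leukemia 1 and 50.7 and 55.1 CPM in leukemia 92, and was not called in any of the 4 comparisons.

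**Figure D2:**
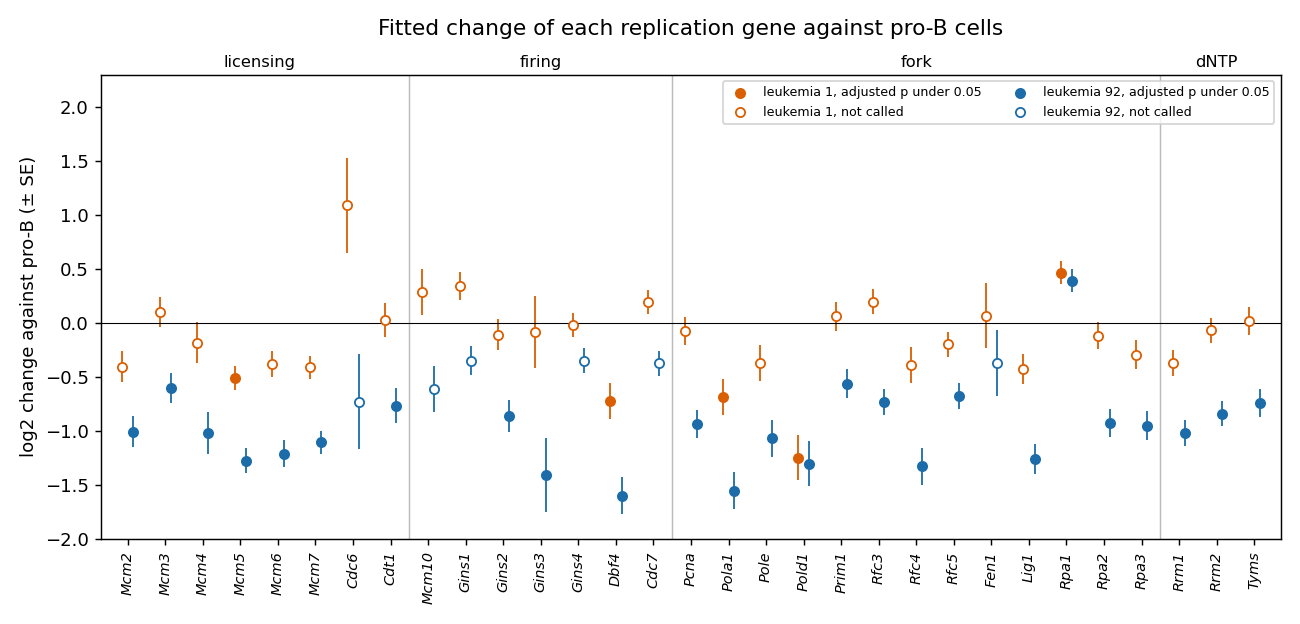
Fitted log2 change against pro-B cells of each replication gene in leukemia 1 and leukemia 92, with bars of 1 SE; filled points have an edgeR adjusted p under 0.05. In leukemia 92, 24 genes are filled below 0 and Rpa1 above it, and in leukemia 1, Mcm5, Dbf4, Pola1 and Pold1 are filled below 0 and Rpa1 above it.

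Of the 13 fork genes, 11 were called lower in leukemia 92 and 1 higher, with a median of -0.94. Pola1, the catalytic subunit of polymerase alpha, stood at 195 and 181 CPM in pro-B cells, 132 and 102 CPM in leukemia 1 and 61.4 and 66.7 CPM in leukemia 92. The groups did not overlap, and the change was called in leukemia 92 (-1.55 ± 0.17, edgeR adjusted p = 0.00518) and in leukemia 1 (-0.68 ± 0.17, adjusted p = 0.0492). Prim1, the catalytic subunit of primase, which works in the same complex, stood at 113 and 102 CPM in pro-B cells, 119 and 105 CPM in leukemia 1 and 69.7 and 75.3 CPM in leukemia 92. Leukemia 1 overlapped the pro-B pair for Prim1, and leukemia 92 lay below it (-0.56 ± 0.14, edgeR adjusted p = 0.0337). Pole, the catalytic subunit of the leading-strand polymerase epsilon, stood at 153 and 141 CPM, 129 and 98.0 CPM, and 70.2 and 69.8 CPM in pro-B cells, leukemia 1 and leukemia 92.

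Pold1, the catalytic subunit of polymerase delta, was the gene with a different pattern among those that fell. It stood at 142 and 149 CPM in pro-B cells, 49.9 and 72.6 CPM in leukemia 1 and 57.2 and 60.7 CPM in leukemia 92. Both leukemias lay far below the pro-B pair, and the leukemia 92 values fell between those of the leukemia 1 replicates. The changes were -1.25 ± 0.21 in leukemia 1 (edgeR adjusted p = 0.021) and -1.30 ± 0.21 in leukemia 92 (adjusted p = 0.0127), and the difference between the leukemias was -0.05 ± 0.20 (adjusted p = 0.895). With the leukemia as the unit, counts of each pair summed and 2 leukemias set against 2 pro-B libraries, Pold1 was the only one of the 31 genes called (-1.26 ± 0.11, edgeR adjusted p = 0.0137). In that comparison 10.7% of all 15280 genes tested were called lower and 9.54% higher, and the median of the 31 genes was -0.45. Pold1 was not called when pro-B replicate 1 or 2 was left out, where calls over all genes fell too. Its change ran from -1.42 to -1.13 over the alternatives. With all libraries, 9 of the 31 genes had an unadjusted p under 0.05 in edgeR, beside 5922 of all 15280.

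The clamp and its loader followed the main pattern. Pcna, the sliding clamp, stood at 508 and 493 CPM in pro-B cells, 442 and 508 CPM in leukemia 1 and 248 and 275 CPM in leukemia 92. Leukemia 1 overlapped the pro-B level and leukemia 92 lay below it, at a fitted 52.2% of it (-0.94 ± 0.13, edgeR adjusted p = 0.00845). Rfc3, a clamp loader subunit, stood at 83.1 and 81.6 CPM in pro-B cells, 95.5 and 93.1 CPM in leukemia 1 and 47.1 and 52.1 CPM in leukemia 92. It was above the pro-B pair in leukemia 1 and below it in leukemia 92, and the difference between the leukemias was -0.93 ± 0.12 (edgeR adjusted p = 0.036). Rfc4 stood at 82.7 and 84.0 CPM, 71.0 and 56.1 CPM, and 30.9 and 35.4 CPM in pro-B cells, leukemia 1 and leukemia 92. Rfc5 stood at 111 and 109 CPM, 91.1 and 101 CPM, and 68.1 and 69.7 CPM in that order. Both were called lower in leukemia 92, by -1.33 ± 0.17 and -0.68 ± 0.12 (edgeR adjusted p = 0.0069 and 0.0146).

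Lig1, the ligase that seals lagging-strand pieces, stood at 252 and 268 CPM in pro-B cells, 183 and 204 CPM in leukemia 1 and 99.9 and 117 CPM in leukemia 92. The 3 groups were separate, and the change in leukemia 92 was -1.26 ± 0.14 (edgeR adjusted p = 0.00524). Fen1, the flap nuclease, gave no usable level: it had 29 to 53 reads per library, and 84.2% of its exon bases overlap Gm10143 and Tmem258 on the opposite strand in GENCODE M21. It is counted above as measured and was not called in any comparison.

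The 3 RPA subunits, which work as one heterotrimer, did not move together. Rpa1, the large subunit, stood at 307 and 297 CPM in pro-B cells, 423 and 410 CPM in leukemia 1 and 386 and 408 CPM in leukemia 92. All 4 leukemia libraries were above both pro-B libraries, and leukemia 92 differed from leukemia 1 by -0.07 ± 0.11 (edgeR adjusted p = 0.712). The change against pro-B cells was 0.39 ± 0.11 in leukemia 92 (edgeR adjusted p = 0.0469) and 0.46 ± 0.11 in leukemia 1 (adjusted p = 0.0412). Its direction held in every alternative, from 0.24 to 0.44 in leukemia 92 and 0.31 to 0.48 in leukemia 1, but the call was lost in 7 and 10 of the 16 alternatives. Rpa2, the middle subunit, stood at 117 and 113 CPM in pro-B cells, 114 and 98.3 CPM in leukemia 1 and 59.9 and 61.1 CPM in leukemia 92. Rpa3, the small subunit, stood at 46.4 and 45.7 CPM, 34.7 and 40.4 CPM, and 24.0 and 23.7 CPM in the same order. Both fell in leukemia 92, by 0.93 ± 0.13 and 0.95 ± 0.13 on the log2 scale (edgeR adjusted p = 0.0083 and 0.00895).

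All 3 dNTP genes were called lower in leukemia 92 and none in leukemia 1. Rrm1, the large subunit of ribonucleotide reductase, stood at 571 and 554 CPM in pro-B cells, 466 and 404 CPM in leukemia 1 and 276 and 278 CPM in leukemia 92. Rrm2, its S-phase small subunit, stood at 395 and 374 CPM, 375 and 358 CPM, and 203 and 226 CPM in that order. Tyms, which makes thymidylate, stood at 124 and 109 CPM, 116 and 120 CPM, and 66.4 and 73.0 CPM. Leukemia 1 overlapped the pro-B pair for Rrm2 and Tyms and lay below it for Rrm1. The changes in leukemia 92 were -1.02 ± 0.12, -0.84 ± 0.12 and -0.74 ± 0.13 (edgeR adjusted p = 0.00597, 0.00891 and 0.0154). Pcna has 2 named pseudogenes and Tyms has 1 in GENCODE M21, so reads shared with these copies may be missing from their counts.

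The ratio of the read counts of partner genes within a library does not depend on how libraries are scaled. Because gene length enters each ratio, only changes of a ratio between libraries carry information. Rpa1 to Rpa2 was 2.62 and 2.63 in pro-B cells, 3.71 and 4.17 in leukemia 1 and 6.44 and 6.67 in leukemia 92. Cdc7 to Dbf4 was 0.6005 and 0.534 in pro-B cells, 1.21 and 0.960 in leukemia 1 and 1.40 and 1.26 in leukemia 92. Pola1 to Prim1 was 1.73 and 1.78, 1.11 and 0.972, and 0.880 and 0.886 in the same order. For each of these pairs both leukemias lay on the same side of the pro-B cells, with leukemia 92 farther away. The ratio of the loading factor genes Cdc6 to Cdt1 was 1.13 to 1.18 in the pro-B and leukemia 92 libraries and 1.24 in replicate 2 of leukemia 1, against 3.69 in its replicate 1.

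**Figure D3:**
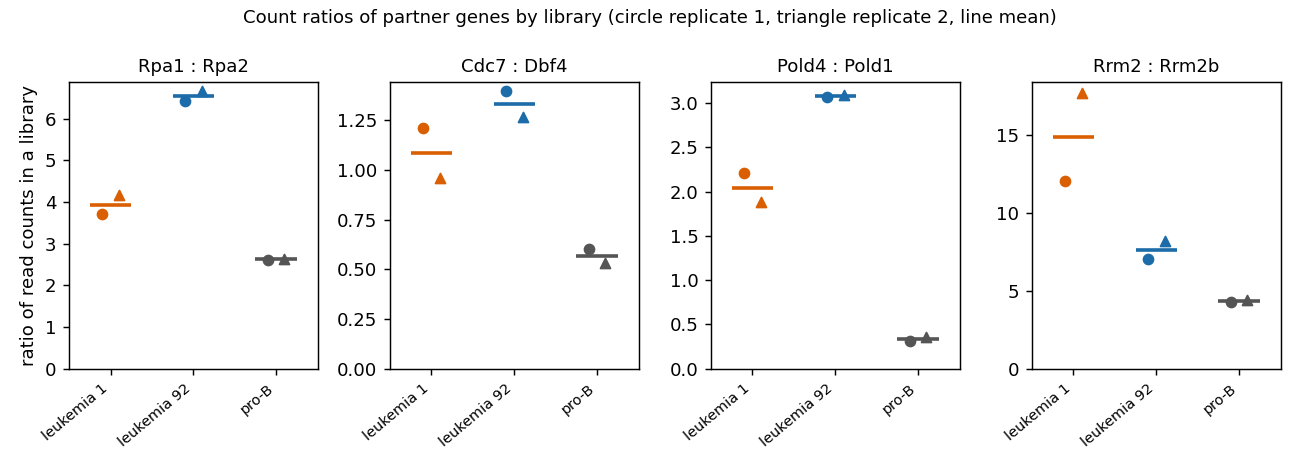
Ratio of read counts of partner genes in each library, with circles for replicate 1, triangles for replicate 2 and a line at the group mean; each vertical axis starts at 0. The pairs were picked after their values were seen: Rpa1 to Rpa2 and Pold4 to Pold1 are highest in leukemia 92, Rrm2 to Rrm2b is highest in leukemia 1, and the pro-B libraries are lowest in all 4 panels.

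Related genes outside the 31 were counted from lists of 6 kinds, beside 16.7% of all genes called lower and 14.7% called higher in leukemia 92. In leukemia 92 against pro-B cells, 6 of 16 other origin and firing genes were called lower and none higher (median -0.42). Examples were Gmnn, which encodes the Cdt1 inhibitor geminin (-0.99), and Cdc45, the helicase partner of GINS (-0.72). Of 26 other fork genes 11 were called lower and 2 higher (median -0.64). Top2a, the topoisomerase of dividing cells, fell from 1588 and 1529 CPM in pro-B cells to 433 and 468 CPM in leukemia 92 (-1.79 ± 0.11, edgeR adjusted p = 0.00158). The 2 that rose were Dna2, a nuclease and helicase of Okazaki fragment processing, and Pold4, the small accessory subunit of polymerase delta.

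Pold4 stood at 44.3 and 53.7 CPM in pro-B cells, 110 and 136 CPM in leukemia 1 and 176 and 188 CPM in leukemia 92. It was called higher in both leukemias, by 1.33 ± 0.17 in leukemia 1 and 1.89 ± 0.18 in leukemia 92 (edgeR adjusted p = 0.012 and 0.00353). The Pold4 to Pold1 count ratio was 0.312 and 0.360 in pro-B cells, 2.21 and 1.88 in leukemia 1 and 3.07 and 3.09 in leukemia 92. Within the same polymerase, the catalytic subunit was lower and the small subunit higher in all 4 leukemia libraries. In GENCODE M21, 24.6% of the Pold4 exon bases overlap AC109138.7 on the same strand. The annotation used for counting is not given, so the effect on its counts is not known. Dna2 stood at 63.3 and 61.4 CPM in pro-B cells, 220 and 115 CPM in leukemia 1 and 282 and 302 CPM in leukemia 92 (2.23 ± 0.33 for leukemia 92, edgeR adjusted p = 0.0105).

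Of 31 other nucleotide genes, 13 were called lower in leukemia 92 and none higher (median -0.46). Dck, the deoxycytidine kinase of the salvage route, stood at 381 and 324 CPM in pro-B cells, 148 and 146 CPM in leukemia 1 and 83.5 and 80.5 CPM in leukemia 92. It was lower in both leukemias and lower in leukemia 92 than in leukemia 1 (-0.84, edgeR adjusted p = 0.0467). Rrm2b, the p53-inducible paralog of Rrm2, stood at 91.6 and 85.1 CPM in pro-B cells, 31.1 and 20.2 CPM in leukemia 1 and 28.9 and 27.5 CPM in leukemia 92. It fell in leukemia 1 by 1.79 ± 0.24 and in leukemia 92 by 1.65 ± 0.23 on the log2 scale (edgeR adjusted p = 0.0125 and 0.00949). Rrm2 to Rrm2b thus shifted from 4.31 and 4.39 in pro-B cells to 12.1 and 17.7 in leukemia 1 and 7.04 and 8.23 in leukemia 92.

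Most chromatin assembly genes were lower too: 10 of 12 were called lower in leukemia 92 and none higher (median -1.03), with Nasp, a histone chaperone, at -1.40 and Ssrp1, a subunit of the FACT chaperone, at -1.07. Of 15 S-phase regulators 4 were called lower and none higher (median -0.48), a count not far from the 16.7% of all genes. Their changes ran from -2.04 for cyclin A2 (Ccna2) to 1.18. Of 13 mitotic markers 10 were called lower and none higher (median -1.28), among them Cenpf (-2.11), the spindle motor Kif11 (-1.55) and Mki67 (-1.39). In leukemia 1, where 10.7% of all genes were called lower and 9.55% higher, the mitotic markers were called lower in 7 of 13 (median -0.72). Of the other fork genes 1 was called lower and 2 higher (median -0.07), and of the other nucleotide genes 5 were called lower and 2 higher (median 0.05), the latter the mitochondrial folate enzymes Shmt2 and Mthfd2. Of the chromatin assembly genes 2 were called lower (median -0.30), and of the S-phase regulators 2 (median -0.08), with none higher in either list. In the same comparison 0 of the 16 other origin and firing genes were called in edgeR (median 0.10), with 2 at an unadjusted p under 0.05 and 1 called by DESeq2. The mitotic markers summed to 3475 and 3383 CPM in pro-B cells, 1843 and 2253 CPM in leukemia 1 and 1303 and 1350 CPM in leukemia 92. Whether the replication and mitotic changes differ within leukemia 1 was not tested. The counts in these lists rest on single libraries as above, and the number of all genes called moved with them. Without any one pro-B or leukemia 92 library, fewer of the other fork genes and mitotic markers were called in leukemia 92. A fit of just the leukemia 92 and pro-B libraries called more of both, and called 5507 of all 14585 genes lower and 4940 higher. In leukemia 1, fewer mitotic markers were called without a pro-B or leukemia 92 library and more without a leukemia 1 library, as over all genes.

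**Figure D4:**
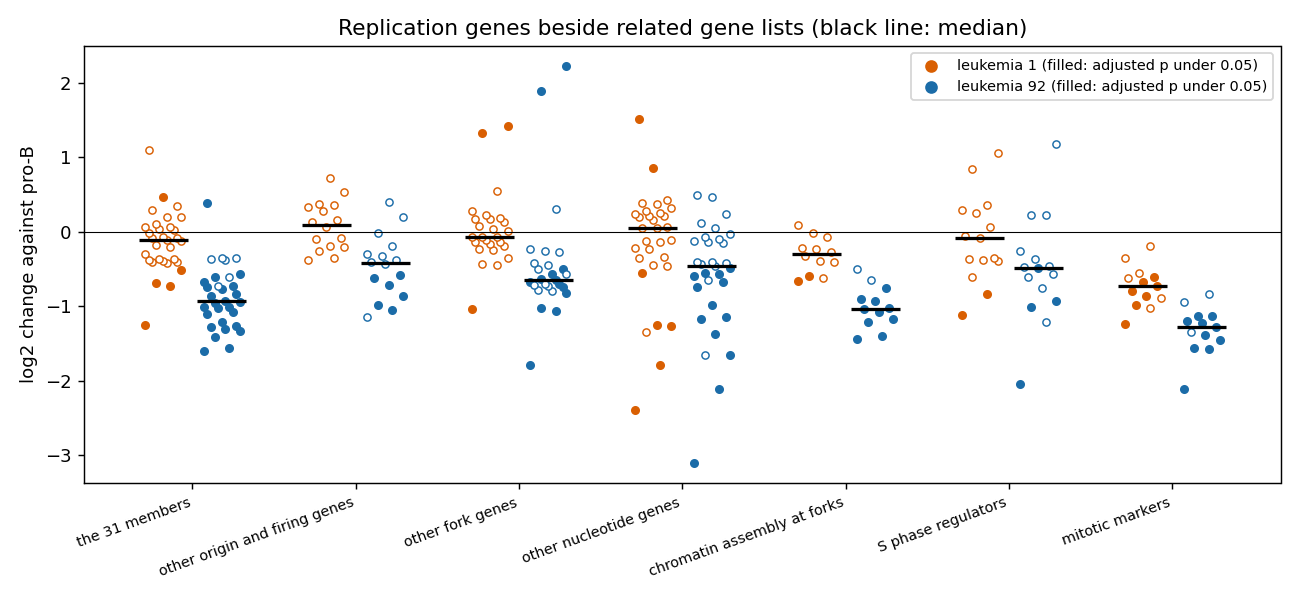
Log2 change against pro-B cells of each tested gene in the replication group and in 6 related lists, for leukemia 1 and leukemia 92; filled points have an edgeR adjusted p under 0.05 and black lines are medians. The leukemia 92 medians run from -0.42 to -1.28 and lie below the leukemia 1 medians in each list.

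Genes listed as markers of other cells also differed between the groups, and which cells expressed them was not tested. Summed erythroid markers stood at 81.6 and 193 CPM in the pro-B libraries and 1.69 to 4.62 CPM in the leukemia libraries, where Hba-a2, Slc4a1 and Car1 had no reads in either leukemia 92 library. Summed T and NK markers stood at 395 and 412 CPM in pro-B cells and 4.88 to 50.7 CPM in the leukemias, and plasmacytoid dendritic markers at 4533 and 5101 CPM against 1042 to 1669 CPM. The 8 stem and progenitor markers summed to 201 and 210 CPM in pro-B cells and 47.3 to 95.5 CPM in the leukemias. Of the 8, 6 were tested for each leukemia. Flt3 and Kit were called lower in leukemia 92 (16.7% of all genes) and Flt3 and Meis1 in leukemia 1 (10.7%, edgeR). None was called higher. Of the 6, 1 lay above 0 in leukemia 92, at 0.81, and 2 in leukemia 1, at up to 1.17 on the log2 scale. The part of these lists in the replication gene differences from pro-B cells was not tested. Granulocyte markers differed between the leukemia 1 libraries, and replicate 1 of leukemia 1, with 183 CPM of them, had 5590 CPM of replication genes beside 5108 CPM in replicate 2 with 16452 CPM.

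The 5 genes over 0.5 apart on the log2 scale between the leukemia 1 replicates were Mcm4, Cdc6, Mcm10, Gins3 and Pold1. Mcm4, Cdc6, Mcm10 and Gins3 were higher in replicate 1 and Pold1 was higher in replicate 2, with differences from -0.54 (Pold1) to 1.33 (Cdc6). No gene of the 31 was that far apart in the leukemia 92 or pro-B pairs.

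Members with an E2F-type 8-mer in a matched promoter numbered 11, and 15 had a matched promoter without one. Only exact matches to the listed 8-mers were searched, so a promoter without one may still hold an E2F site. In leukemia 92 against pro-B cells, 10 of the 11 were called lower, with a median of -1.21, and of the 15 without one, 11 were called lower and 1 higher, with a median of -0.84. In leukemia 1 the medians were -0.38 and -0.08. The ranges overlapped widely, -1.55 to -0.60 with and -1.60 to 0.39 without in leukemia 92, and the difference was not tested.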

How the data were processed

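RNA-seq counts of 6 libraries in 3 groups were used. The authors deposited raw counts per gene. Per the submitters' processing notes, STAR 2.4, HTSeq 0.6.1, DESeq2 and build mm9 were used, without a stated role. Which annotation and which strand setting were used is not given in the sources used here. Entries that name no gene held 34.0% to 39.6% of a library and were left out. No per-sample column was left unused.

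Tests used edgeR 4.0.16 in R 4.3.3 over all genes: filterByExpr with a minimum count of 10, TMM, robust quasi-likelihood fit, Benjamini-Hochberg adjustment, called under 0.05. Leukemia 92 against pro-B, leukemia 1 against pro-B and leukemia 92 against leukemia 1 share 1 fit of the 6 libraries with 1 coefficient per group. Leukemia against pro-B summed the counts of each leukemia. The code was tested on simulated data. A named gene is any of the 31, the up to 3 called genes of a related list with the smallest p in each direction, or Rrm2b. Hba-a2, Slc4a1, Car1, Flt3, Kit, Meis1, Cd79a, Rag1, Rag2 and Dntt, markers, were named after their values were seen. The members and lists were chosen with earlier results of these data known.

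Alternatives were DESeq2 1.42.0, other scaling, no filter, a replicate block, fewer libraries and leaving out each library. Exon lengths and overlaps are from GENCODE M21 (GRCm38), promoters from RefSeq, and no mm9 coordinates were used. CPM was computed with edgeR, and its precision is limited by 2 libraries a group.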

Additional observations from a re-analysis of the deposited data

Results flagged for a closer look

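The change against pro-B cells differed between leukemia 92 and leukemia 1 for 7 of the 31 replication genes, by the test of the difference itself (edgeR, adjusted p from 0.036 to 0.0477). Over all genes tested, 1.27% were called lower and 1.82% higher. None of the 7 was called in a fit of the 4 leukemia libraries alone or with a replicate block, where 0 of all genes were called. On the log2 scale the difference, leukemia 92 minus leukemia 1, was -0.7693 for Mcm5, -0.8335 for Mcm6 and -0.6945 for Mcm7, all subunits of the helicase ring. It was -0.8620 for the clamp Pcna, -0.9269 for the clamp loader subunit Rfc3, -0.8114 for the single-strand binding subunit Rpa2 and -0.7712 for the reductase subunit Rrm2. Each of the 7 was lower in both leukemia 92 libraries than in both leukemia 1 libraries, as were 30 of the 31 genes and 25.8% of all genes tested.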

How the results depend on the processing

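Counts here are of replication genes called. For leukemia against pro-B, 1 became 19 (6 libraries), 10 (DESeq2) and 13 (replicate block). Over all genes, 1458 higher and 1631 lower became 2107 and 2605 (6 libraries), 2335 and 2434 (DESeq2) and 1448 and 1925 (replicate block). The median of -0.45 became -0.51 (6 libraries), -0.51 (replicate block) and -0.59 (total counts). For leukemia 92 against pro-B, 25 became 21 with the replicate block. Over all genes, 2198 higher and 2498 lower became 1538 and 1597 with the block. The median became -1.09 with total counts, which shift the median of all genes from -0.04 to -0.19. For leukemia 1 against pro-B, 5 became 0 (4 libraries), 10 (DESeq2), 2 (no filter), 1 (replicate block) and 8 (total counts). Over all genes, 1431 higher and 1607 lower became 392 and 540 (4 libraries) and 2286 and 2269 (DESeq2). They became 1156 and 1542 with no filter, 701 and 738 with the block and 1134 and 1971 with total counts. The median of -0.11 became -0.16 (no filter) and -0.26 (total counts). For leukemia 92 against leukemia 1, 7 became 0 (4 libraries), 27 (DESeq2), 1 (no filter) and 0 (replicate block). Over all genes, 273 higher and 190 lower became 1322 and 1345 (DESeq2) and 238 and 156 (no filter). They became 0 and 0 with 4 libraries and with the block. Where the count was 0 with 4 libraries, 7 genes (leukemia 1 against pro-B) and 27 genes (leukemia 92 against leukemia 1) had an unadjusted p under 0.05, and 27 with the block.

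Leaving out 1 library gave 0 to 2 calls for leukemia against pro-B (0 without either pro-B library), 0 to 30 for leukemia 92, 0 to 19 for leukemia 1 and 0 to 29 between the leukemias. The medians ran from -0.49 to -0.41, -0.98 to -0.86, -0.17 to -0.10 and -0.81 to -0.68. For leukemia 92 against pro-B, calls rose without either leukemia 1 library and fell without any one of the other 4, over all genes as well. When only the 4 libraries compared were fitted, 30 were called, also without any one of these (chosen after seeing the data). For leukemia 1 against pro-B the calls were 17 and 18 without replicates 1 and 2 of leukemia 1, and 18 and 19 with 4 libraries. Without replicate 2 of leukemia 1, Gins3 in leukemia 1 turned to 0.27 (4 libraries) and Pold1 in leukemia 92 against leukemia 1 turned to 0.24, with -0.29 without replicate 1. The cause was not tested. A lone library is assumed to vary like the other groups. Same-numbered replicates did not deviate together (correlations -0.0994, 0.0763 and -0.0258), so the numbers were not taken as pairs. With 2 libraries a group, small changes cannot be resolved.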
